A study of Mus musculus with 35 samples.

Results

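Polymorphonuclear myeloid-derived suppressor cells (PMN-MDSC) were compared with monocytic ones (M-MDSC), both sorted from pancreatic tumors of mice that had received poly(I:C)c, which is poly(I:C) complexed with polyethylenimine (poly(I:C)-PEI). The comparison took every library labelled as tumor MDSC of a treated mouse, 4 of PMN-MDSC and 4 of M-MDSC, out of 35 libraries in the series. One M-MDSC library held 10 counts and was left out, so that 4 PMN-MDSC libraries stood against 3 M-MDSC libraries. Of 53379 genes in the table, 8955 had a mean of at least 25 counts over these 7 libraries and were tested.

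All tumors of the series grew from T110299 cells, 1 line taken from an engineered mouse with spontaneous pancreatic cancer, which carried Ptf1a-Cre and LSL-Trp53fl/R172H, and implanted into the pancreas of female C57BL6 mice, wild type mice being 6 to 12 weeks old in the methods of the study. Ptf1a drives Cre in the pancreas, so these alleles are those of the tumor cells and not of the host leukocytes that were sorted. Treated mice had 2 intravenous injections of 50 µg poly(I:C) as complex, on days 18 and 20. The general methods of the study name glucose as the control, whereas its account of the transcriptome calls the other mice untreated. CD11b+ cells were enriched on magnetic beads and sorted by surface protein, PMN-MDSC as Ly6G+ with low Ly6C and M-MDSC as Ly6G- with high Ly6C. The series also holds the same cell types from untreated tumors (4 libraries each) and from spleens of treated mice (3 PMN-MDSC and 4 M-MDSC libraries), which are used below only to show where the treated tumor differs.

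PMN-MDSC resemble neutrophils and M-MDSC resemble monocytes. Neutrophils are made in bone marrow with preformed granule proteins, follow CXC chemokines through CXCR2 and depend on the growth factor G-CSF. Monocytes follow CCL2 through CCR2 and turn into macrophages once inside a tissue, where they gain complement, scavenger receptor and lipid-handling genes. In tumors both kinds of MDSC are known for restraining T cells, among other means through nitric oxide synthase, PD-L1 and prostaglandins. Poly(I:C) mimics viral double-stranded RNA, and its complex with polyethylenimine reaches the cytosolic sensor MDA5, which leads to type I interferon.

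The libraries held 2192320 to 3652121 counts in PMN-MDSC and 2373408 to 4357105 in M-MDSC. No pair of libraries within a group was a copy of another. Levels are given as CPM, the count scaled to a common library size, after TMM scaling, a correction for library composition. In every list of values the PMN-MDSC libraries stand in the order 11, 15, 27 and 31 and the M-MDSC libraries in the order 16, 28 and 32, by the running number of each library. The columns name no mouse, and none was assigned from the order of these numbers. Log2 fold changes are PMN-MDSC minus M-MDSC, so that a positive value is higher in PMN-MDSC, and errors are standard errors (SE) with n = 4 and 3.

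The transcripts of the sorting proteins were read first, as a check on the labels. Ly6g, which encodes the PMN-MDSC antigen, was at 10.7, 27.5, 5.39 and 90.03 CPM in the PMN-MDSC libraries and 0.419, 0.224 and 1.43 CPM in the M-MDSC libraries. The groups did not overlap for Ly6g, but its level spread widely among the PMN-MDSC libraries, with library 31 highest and library 27 lowest. Ly6c2, 1 of the genes encoding Ly6C, was at 134, 127, 72.5 and 289.9 CPM in the PMN-MDSC libraries and 619, 2.91 and 431 CPM in the M-MDSC libraries. M-MDSC library 28 thus had the lowest Ly6c2 level of all 7 libraries although its cells were sorted for Ly6C, while the other M-MDSC libraries had the highest. Library 28 goes against its label in this gene, and the values without it are given beside the results that rest on it. With all 7 libraries the log2 fold change of Ly6c2 was -1.17 ± 1.12 (adjusted p = 0.64), and without library 28 it was -1.76.

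Library 28 also stood out for macrophage genes. Apoe, a lipid carrier made by tissue macrophages, was at 12139, 13288, 9611 and 5827 CPM in the PMN-MDSC libraries and 3409, 20029.9 and 7157 CPM in the M-MDSC libraries. C1qa, a chain of complement C1q and likewise a macrophage gene, was at 1349, 1398, 807 and 819 CPM in the PMN-MDSC libraries and 378, 2136 and 935 CPM in the M-MDSC libraries. Both genes were highest in library 28, and both were present at high levels in all 4 PMN-MDSC libraries, above M-MDSC library 16 in each. The mannose receptor Mrc1 was at 899, 677, 514 and 435 CPM in the PMN-MDSC libraries and 267, 1145 and 475 CPM in the M-MDSC libraries, again highest in library 28 and lowest in library 16. In sum, the 22 monocyte and macrophage identity genes stood at 23434, 24671, 16760.4 and 12058 CPM in PMN-MDSC and at 12529.6, 34875 and 16116 CPM in M-MDSC. The groups overlapped, and macrophage transcripts were found in every library sorted for Ly6G. In RNA from sorted pools, fewer cells of a type and less RNA per cell cannot be told apart.

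**Figure D1:**
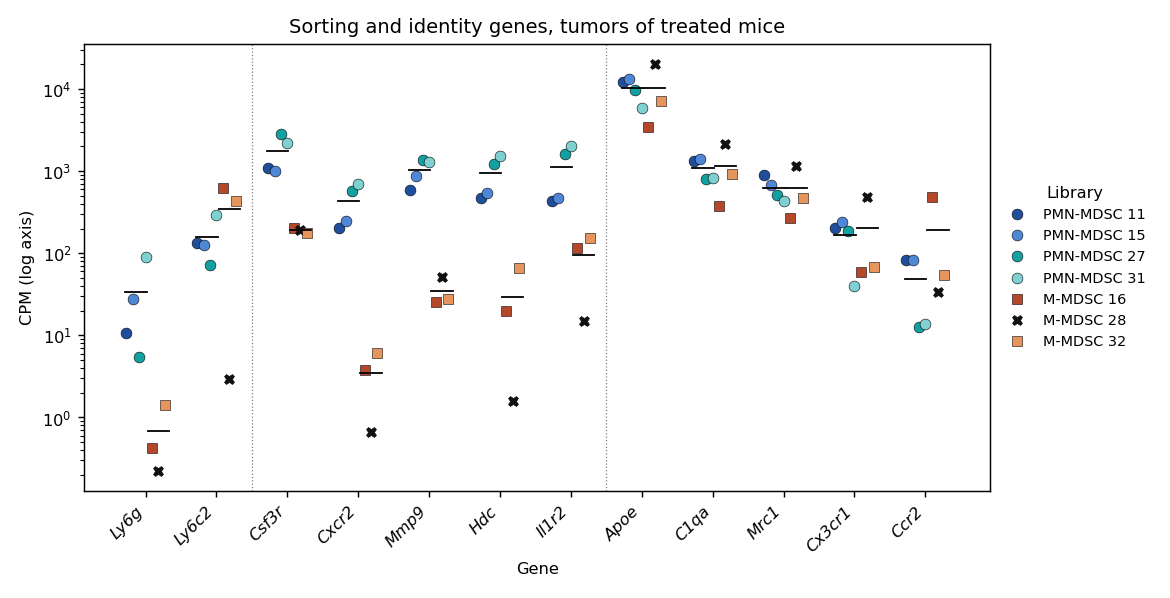
Levels of sorting, neutrophil and monocyte or macrophage genes in each of the 7 libraries from tumors of treated mice, as CPM on a log axis; circles are PMN-MDSC, squares M-MDSC, the cross M-MDSC library 28, and short lines group means. The neutrophil genes separated the groups for the most part, whereas the macrophage genes overlapped.

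Markers of other cell types summed to less than the monocyte and macrophage identity genes in every library, but they were not absent. The 19 lymphocyte and NK cell markers summed to 54.4 to 118 CPM in PMN-MDSC and 85.5 to 189 CPM in M-MDSC, and 3 of them passed the count minimum. The 12 dendritic cell markers summed to 145 to 225 and 169 to 243 CPM, with Ly6d and Siglech at 0 in every library. The 15 epithelial and acinar markers summed to 136 to 217 CPM in PMN-MDSC and to 88.9 to 127 CPM in M-MDSC, without overlap, with Cldn4 at 0. Epithelial transcripts were thus somewhat higher in the PMN-MDSC libraries. The 11 erythroid and platelet markers summed to 74.3 to 145 and 19.3 to 69.8 CPM, also without overlap, with Car1 at 0. The 12 fibroblast and endothelial markers summed to 99.7 to 242 and 124 to 208 CPM. The 14 eosinophil and mast cell markers summed to 58.4 to 191 and 8.95 to 201 CPM, with Fcer1a, Mcpt8 and Prss34 at 0. The part of these cell types, and of macrophages, in the differences described here was not tested.

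At an adjusted p under 0.001 with at least 2-fold, the threshold used by the study, edgeR's quasi-likelihood test with Benjamini-Hochberg adjustment called 0 of 8955 genes (0%). At an unadjusted p under 0.05 it gave 1153 genes (12.9%), of which 781 (8.72%) were higher in PMN-MDSC and 372 (4.15%) in M-MDSC. DESeq2's Wald test called 93 of 8595 genes with an adjusted p (1.08%) at the strict threshold, 92 higher in PMN-MDSC (1.07%) and 1, the mitochondrial mt-Nd4l, higher in M-MDSC (0.0116%). The strict count thus depended on the tool. The calls described next are therefore those of edgeR at an adjusted p under 0.05 with at least 2-fold, a looser threshold whose use for the gene by gene account was decided after the strict count was known.

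At that threshold 34 genes (0.38%) were called, all of them higher in PMN-MDSC, and 0 genes were called higher in M-MDSC. DESeq2 at the same threshold called 286 genes (3.33%), 276 on the PMN-MDSC side (3.21%) and 10 on the M-MDSC side (0.116%), and all 34 were among them. The 34 rested on the libraries used: leaving out PMN-MDSC library 15, 27 or 31 left 4, 0 and 13 calls, leaving out M-MDSC library 16, 28 or 32 left 0, 2 and 0, and leaving out PMN-MDSC library 11 gave 38. The 2 that were called without library 28 were Mmp9 (adjusted p = 0.0376) and Actn1 (adjusted p = 0.0493). All 34 stayed higher in PMN-MDSC without library 28. Among the 30 called genes with more than 3 counts in an M-MDSC library, the log2 fold change ran from 1.69 to 7.88 with a median of 3.96, and the median without library 28 was 3.79. Over all genes, 3929 of the 8955 tested had a positive log2 fold change and 5026 a negative one, with a median of -0.07, while changes of at least 2-fold were more often on the PMN-MDSC side (549 genes, 6.13%) than on the M-MDSC side (90 genes, 1.01%), with no test.

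**Figure D2:**
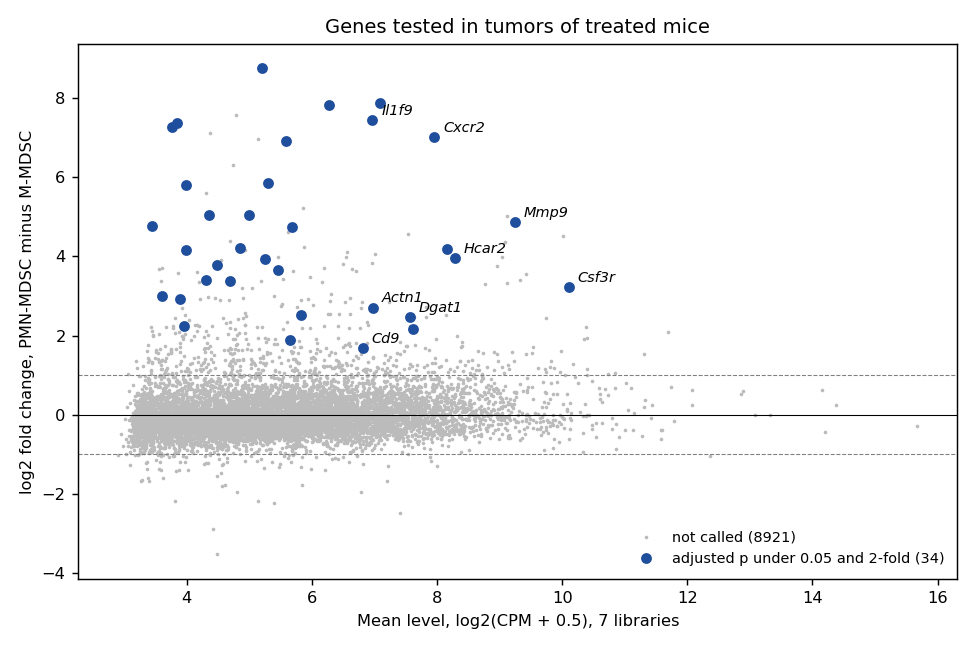
Log2 fold change (PMN-MDSC minus M-MDSC) of the 8955 tested genes against their mean level as log2(CPM + 0.5), with the 34 genes called at an adjusted p under 0.05 with at least 2-fold marked. The called genes all lie on the PMN-MDSC side, and wide positive changes are more frequent than wide negative ones (549 genes were at least 2-fold higher in PMN-MDSC against 90 in M-MDSC, with no test).

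Cxcr2 and Csf3r, receptors through which neutrophils are drawn into tissue and kept alive, were among the called genes. Cxcr2 (ENSMUSG00000026180.8, chr1:74153989-74161246, positions here and later from GENCODE M21 on GRCm38), the receptor for neutrophil-attracting CXC chemokines, was at 202, 244, 579 and 701 CPM in the PMN-MDSC libraries and 3.77, 0.671 and 6.10 CPM in the M-MDSC libraries. Every PMN-MDSC library was far above every M-MDSC library, and libraries 27 and 31 were above 11 and 15. The log2 fold change was 7.01 ± 0.83 (adjusted p = 0.0336) and 6.42 without library 28. Csf3r (ENSMUSG00000028859.14, chr4:126024550-126044440), the G-CSF receptor, was at 1100.2, 1009, 2824 and 2196 CPM in the PMN-MDSC libraries and 205, 191 and 175 CPM in the M-MDSC libraries. Csf3r was present in M-MDSC too, at an even level in the 3 libraries, and its log2 fold change was 3.23 ± 0.44 (adjusted p = 0.0336, 3.23 without library 28). Hcar2, a receptor for butyrate and nicotinic acid, which was chosen after its values were seen, was at 218, 236, 692 and 931 CPM in the PMN-MDSC libraries and 27.7, 36.7 and 35.1 CPM in the M-MDSC libraries, with a log2 fold change of 3.96 ± 0.61 (adjusted p = 0.0461, 4.04 without library 28). For the chemokine receptors as a list, 1 of 8 tested members was called by edgeR and 2 by DESeq2, beside 0.38% and 3.21% of all genes on the PMN-MDSC side. Of the 8 members 4 were higher in PMN-MDSC and 4 in M-MDSC.

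The smallest adjusted p-values were those of Actn1 and Mmp9. Mmp9 (ENSMUSG00000017737.2, chr2:164940780-164955850), gelatinase B of neutrophil tertiary granules, was at 592, 866, 1387 and 1281 CPM in the PMN-MDSC libraries and 25.6, 51.5 and 27.97 CPM in the M-MDSC libraries. Its lowest PMN-MDSC library was far above its highest M-MDSC library, and the log2 fold change was 4.87 ± 0.46 (adjusted p = 0.0124), or 5.26 without library 28. Actn1 (ENSMUSG00000015143.15, chr12:80167547-80260371), an actin cross-linker chosen after its values were seen, was at 145, 208, 233 and 197 CPM in the PMN-MDSC libraries and 33.1, 31.1 and 25.8 CPM in the M-MDSC libraries. It varied little within either group, and the log2 fold change was 2.704 ± 0.23 with the smallest adjusted p of all genes (0.0113). Mgam, a maltase found in neutrophil granules, was at 23.8, 39.4, 58.8 and 93.6 CPM in the PMN-MDSC libraries and 2.93, 1.57 and 0.359 CPM in the M-MDSC libraries (log2 fold change 5.05 ± 0.68, adjusted p = 0.0336, 5.04 without library 28). Myo1d, a myosin chosen after its values were seen, was at 34.98, 38.7, 91.1 and 85.96 CPM in the PMN-MDSC libraries and 2.10, 3.13 and 6.81 CPM in the M-MDSC libraries (log2 fold change 3.95 ± 0.55, adjusted p = 0.034, 3.76 without library 28). Cd9, a tetraspanin, had the smallest change of the 34, at 126, 148, 189 and 171 CPM in the PMN-MDSC libraries and 52.4, 40.7 and 54.5 CPM in the M-MDSC libraries (log2 fold change 1.69 ± 0.22, adjusted p = 0.0336, 1.57 without library 28).

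The called genes also included Il1f9 (ENSMUSG00000044103.4, chr2:24186476-24193568), which encodes the IL-1 family cytokine IL-36γ. Il1f9 was at 93.5, 93.1, 237 and 443 CPM in the PMN-MDSC libraries and 0.838, 0.224 and 2.87 CPM in the M-MDSC libraries, which is near absence in M-MDSC (log2 fold change 7.45 ± 0.96, adjusted p = 0.0336, 6.78 without library 28). Gsdme, a gasdermin that forms pores when caspases cut it, was at 14.2, 22.8, 20.6 and 34.1 CPM in the PMN-MDSC libraries and 2.93, 3.58 and 2.15 CPM in the M-MDSC libraries (log2 fold change 2.93 ± 0.39, adjusted p = 0.0336, 3.14 without library 28). Asprv1, an aspartic protease also made by neutrophils and chosen after its values were seen, was at 77.7, 108, 185 and 575 CPM in the PMN-MDSC libraries and 0.838, 0.447 and 1.79 CPM in the M-MDSC libraries (log2 fold change 7.88 ± 1.04, adjusted p = 0.0336, 7.40 without library 28). Library 31 alone was several times above the other PMN-MDSC libraries for Asprv1. The M-MDSC libraries held 11 counts of Il1f9 and 9 of Asprv1 in sum, so that both folds rest on values near the floor. The stefin gene Stfa2l1, whose family inhibits cathepsins, was at 17.6, 33.6, 64.1 and 138 CPM in the PMN-MDSC libraries and 0, 0.224 and 0 CPM in the M-MDSC libraries, and no fold is given because each M-MDSC library had 3 counts or fewer. Stefin genes are near-identical copies, so that reads could be split between them.

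Dgat1, Steap4 and Osgin1 were further called genes outside the lists, chosen after their values were seen. Dgat1, which completes triglyceride synthesis, was at 192, 265, 452 and 257 CPM in the PMN-MDSC libraries and 73.8, 38.3 and 46.3 CPM in the M-MDSC libraries (log2 fold change 2.47 ± 0.37, adjusted p = 0.041, 2.28 without library 28). Steap4, a metalloreductase that handles iron and copper, was at 24.8, 27.5, 90.6 and 125 CPM in the PMN-MDSC libraries and 2.10, 0.224 and 1.43 CPM in the M-MDSC libraries (log2 fold change 5.86 ± 0.91, adjusted p = 0.0473, 5.20 without library 28). The M-MDSC libraries held 10 counts of Steap4 in sum, so that this fold too rests on values near the floor. Osgin1, a gene induced by oxidative stress, was at 51.8, 54.002, 120.0 and 125 CPM in the PMN-MDSC libraries and 12.6, 17.003 and 15.4 CPM in the M-MDSC libraries (log2 fold change 2.53 ± 0.39, adjusted p = 0.0461, 2.63 without library 28). In these genes too the groups did not overlap, as for all 34 called genes. Over all genes, libraries did not overlap with PMN-MDSC higher in 736 (8.22%) and with M-MDSC higher in 579 (6.47%).

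Since the called genes were all higher in PMN-MDSC, promoters are shown for 2 receptors that separated the groups, Csf3r and Cxcr2, and for 2 of the called genes that held a C/EBP motif, Mgam and Steap4. C/EBP factors are known regulators of granulocyte genes. Each sequence covers 250 bases before to 50 after the RefSeq start on GRCm38.p6, plus strand, 5′ to 3′, and capitals mark a match to TTGCNNAA on either strand (TTNNGCAA when read on the other), at chr4:126024409-126024708 for Csf3r, chr1:74153744-74154043 for Cxcr2, chr6:40628581-40628880 for Mgam and chr5:7960222-7960521 for Steap4.
Csf3r: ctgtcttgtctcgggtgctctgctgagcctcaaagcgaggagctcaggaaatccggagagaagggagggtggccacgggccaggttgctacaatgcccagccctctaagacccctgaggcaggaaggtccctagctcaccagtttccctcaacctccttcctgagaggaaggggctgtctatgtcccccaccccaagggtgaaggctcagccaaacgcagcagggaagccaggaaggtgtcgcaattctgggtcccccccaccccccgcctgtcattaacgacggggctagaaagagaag
Cxcr2: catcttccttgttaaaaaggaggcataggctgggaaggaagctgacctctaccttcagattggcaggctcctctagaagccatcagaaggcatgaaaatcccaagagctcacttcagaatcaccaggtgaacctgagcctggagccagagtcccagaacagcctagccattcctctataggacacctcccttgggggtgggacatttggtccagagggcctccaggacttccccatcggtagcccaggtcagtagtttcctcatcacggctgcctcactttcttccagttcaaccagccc
Mgam: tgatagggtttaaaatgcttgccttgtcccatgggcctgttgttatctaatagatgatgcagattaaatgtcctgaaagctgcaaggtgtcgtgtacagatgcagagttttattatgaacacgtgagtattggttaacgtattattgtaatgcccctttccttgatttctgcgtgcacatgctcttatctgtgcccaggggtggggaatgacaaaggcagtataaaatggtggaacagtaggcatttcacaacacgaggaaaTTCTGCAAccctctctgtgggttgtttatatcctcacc
Steap4: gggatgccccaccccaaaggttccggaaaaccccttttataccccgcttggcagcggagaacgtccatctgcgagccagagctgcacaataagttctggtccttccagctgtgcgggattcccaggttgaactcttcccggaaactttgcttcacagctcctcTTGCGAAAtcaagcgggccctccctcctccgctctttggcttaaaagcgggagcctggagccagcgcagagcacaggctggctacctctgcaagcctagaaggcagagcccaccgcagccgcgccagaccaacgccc
The match in Steap4 began 87 bases before the start, and that in Mgam 12 bases after it. Of the 34 called genes 26 had an entry in the promoter table, and 4 of these (15.4%) held the motif, against 12.2% of the 27025 genes in the table and 10.8% of its 32851 promoters. The Ets motif AGGAAGT, on either strand, was held by 3 of the 26 (11.5%) and by 10.7% of all genes. Neither share stood far from that of all genes, and a match is a run of letters and not evidence of binding.

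The neutrophil identity list had 21 tested members, and all 21 had a higher fitted level in PMN-MDSC, with a median log2 fold change of 3.57 against -0.07 over all genes, and 3.20 without library 28. The count minimum admits genes that are near 0 in M-MDSC, and 11 of the 21 had at least 10 counts in every library, with a median of 2.51. By edgeR 4 of the 21 were called, by DESeq2 15, and in 16 the libraries did not overlap, against 0.38%, 3.21% and 8.22% of all genes in that direction. Their summed level was 6035, 9353, 13124 and 20458 CPM in PMN-MDSC and 1626, 656 and 1731 CPM in M-MDSC. Thus M-MDSC library 28 held the fewest neutrophil transcripts and PMN-MDSC library 31 the most. Hdc, which makes histamine, was at 473, 549, 1228 and 1536 CPM in the PMN-MDSC libraries and 19.7, 1.57 and 67.1 CPM in the M-MDSC libraries (log2 fold change 5.02 ± 1.11, adjusted p = 0.166, 4.44 without library 28). Il1r2, the decoy receptor for IL-1, was at 435, 476, 1598 and 2005 CPM in the PMN-MDSC libraries and 117, 14.8 and 155 CPM in the M-MDSC libraries (log2 fold change 3.57 ± 0.92, adjusted p = 0.216, 3.05 without library 28). S100a8, 1 chain of calprotectin and an abundant neutrophil protein, was at 373, 1107, 479 and 1700.4 CPM in the PMN-MDSC libraries and 93.5, 2.01 and 39.8 CPM in the M-MDSC libraries. In each of these genes the M-MDSC libraries differed widely among themselves, with library 28 lowest, and none passed the test.

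Granule genes were listed by class of granule, and no difference between the classes was tested. The azurophil granule list, made earliest, had 4 tested members, of which 3 were higher in M-MDSC and 0 were called (median -0.88, 1.51 without M-MDSC library 16 and -1.03 without M-MDSC library 28, the value without library 16 resting on 2 members). The specific granule list had 10, of which 9 were higher in PMN-MDSC, 0 were called by edgeR and 2 by DESeq2 (median 3.11, 2.02 without PMN-MDSC library 15, 4.94 without M-MDSC library 16 and 2.498 without M-MDSC library 28). Where genes needed at least 10 counts in every library, its median was 0.22. Of all genes, DESeq2 called 3.21% higher in PMN-MDSC. Lcn2, the iron-binding lipocalin of specific granules, was at 249.9, 1017, 202 and 2156 CPM in the PMN-MDSC libraries and 137, 2.68 and 132 CPM in the M-MDSC libraries (log2 fold change 3.33 ± 1.29, adjusted p = 0.356). Olfm4, which marks a subset of neutrophils, was at 6.41, 24.5, 24.97 and 85.5 CPM in the PMN-MDSC libraries and 0.419, 0.224 and 0 CPM in the M-MDSC libraries, and no fold is given because each M-MDSC library had 3 counts or fewer. Mmp8, neutrophil collagenase, was at 128, 361, 210.1 and 2119 CPM in the PMN-MDSC libraries and 71.7, 1.12 and 140.2 CPM in the M-MDSC libraries (log2 fold change 3.32 ± 1.45, adjusted p = 0.387). Library 31 was highest in each of these genes, and library 28 lowest in Lcn2 and Mmp8. The gelatinase and secretory granule list had 9 tested members, all 9 higher in PMN-MDSC, of which Mmp9 and Mgam were called (median 0.81, 0.91 without M-MDSC library 28), beside 0.38% of all genes.

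The monocyte and macrophage identity list did not separate the groups. Of its 22 members 19 had a higher fitted level in M-MDSC, but 0 were called by edgeR or by DESeq2 and in 0 did the libraries stay apart (median -0.38, -0.20 without PMN-MDSC library 31, -0.10 without M-MDSC library 28 and -0.58 without M-MDSC library 32). Ccr2, the receptor that draws monocytes out of bone marrow, was at 83.9, 82.5, 12.7 and 13.7 CPM in the PMN-MDSC libraries and 488, 33.8 and 53.8 CPM in the M-MDSC libraries (log2 fold change -1.97 ± 1.02, adjusted p = 0.431). Its M-MDSC level rested on library 16, and without that library the log2 fold change was 0.18. Ms4a4c, a monocyte gene induced by interferon, was at 129, 95.1, 48.5 and 92.6 CPM in the PMN-MDSC libraries and 262, 123 and 287 CPM in the M-MDSC libraries (log2 fold change -1.29 ± 0.37, adjusted p = 0.24). Klf4, a transcription factor of monocyte differentiation, was at 148, 110.0, 101 and 86.5 CPM in the PMN-MDSC libraries and 174, 173 and 136 CPM in the M-MDSC libraries (log2 fold change -0.53 ± 0.22, adjusted p = 0.372). The receptor Csf1r, for the growth factor that sustains macrophages, was at 1222, 1130.0, 875 and 523 CPM in the PMN-MDSC libraries and 1111, 1493 and 935 CPM in the M-MDSC libraries, and the groups overlapped.

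MHC class II genes, which present antigen to CD4+ T cells, showed how much library 28 weighed in M-MDSC. Of 7 tested members 6 had a higher fitted level in M-MDSC (median -0.26), and 0 were called. Leaving out single libraries gave medians from -0.70 without M-MDSC library 32 to 0.90 without M-MDSC library 28. Their sum was 2701, 3463, 2031 and 611 CPM in PMN-MDSC and 1621, 4988 and 673 CPM in M-MDSC. Library 28 was thus above all others and PMN-MDSC library 31 below all others. MHC class I presentation genes, 23 tested, had a median near that of all genes, with 7 higher in PMN-MDSC, 16 higher in M-MDSC, 0 called and a median of -0.11 (-0.07 without PMN-MDSC library 27, -0.07 without M-MDSC library 16 and -0.18 without M-MDSC library 28). H2-Q10, a class I heavy chain gene that the list does not hold and that was named after its values were seen, was among the 34 called genes, at 43.3, 29.2, 67.6 and 50.4 CPM in the PMN-MDSC libraries and 5.03, 1.57 and 1.43 CPM in the M-MDSC libraries (log2 fold change 4.21 ± 0.51, adjusted p = 0.0336, 3.89 without library 28). Class I genes are close copies of one another, so that its reads could be shared with them.

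Of the IL-1 family and inflammasome list, 19 members were tested, and Il1f9 and Gsdme were called, while DESeq2 called 6. Of all genes, edgeR called 0.38% and DESeq2 3.21% higher in PMN-MDSC. The members split, with 11 of the 19 higher in PMN-MDSC and 8 in M-MDSC (median 0.97, 0.42 without PMN-MDSC library 31 and 0.78 without M-MDSC library 28). Where genes needed at least 10 counts in every library, the median was 0.05. Il1b, which encodes the fever-inducing cytokine IL-1β, was at 2894, 2934, 7321 and 6471 CPM in the PMN-MDSC libraries and 1491, 941 and 1047 CPM in the M-MDSC libraries (log2 fold change 2.08 ± 0.43, adjusted p = 0.135). The groups stayed apart for Il1b, and libraries 27 and 31 were above 11 and 15. Il18rap, a chain of the IL-18 receptor, was at 75.04, 86.6, 203 and 318 CPM in the PMN-MDSC libraries and 25.99, 1.12 and 15.4 CPM in the M-MDSC libraries (log2 fold change 3.64 ± 0.93, adjusted p = 0.216, 3.04 without library 28). On the other side, the inflammasome sensors Naip5 and Nlrc4, which detect bacterial flagellin and secretion systems, had log2 fold changes of -0.61 ± 0.20 (adjusted p = 0.286) and -0.64 ± 0.22 (adjusted p = 0.305). Naip5 was at 59.8, 56.7, 38.2 and 57.98 CPM in the PMN-MDSC libraries and 75.4, 78.97 and 90.4 CPM in the M-MDSC libraries, and the groups did not overlap.

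Neutrophil-attracting chemokines were measured in both cell types. Cxcl2 was at 902, 1098, 2219 and 3832 CPM in the PMN-MDSC libraries and 516, 100.5 and 677 CPM in the M-MDSC libraries (log2 fold change 2.22 ± 0.74, adjusted p = 0.297). Cxcl3 was at 46.999, 70.3, 211 and 493 CPM in the PMN-MDSC libraries and 25.99, 3.36 and 15.1 CPM in the M-MDSC libraries (log2 fold change 3.83 ± 1.01, adjusted p = 0.219, 3.31 without library 28). For both genes the groups stayed apart, M-MDSC library 28 was lowest and PMN-MDSC library 31 highest. Of the 9 tested CXC chemokines 0 were called by edgeR and 2 by DESeq2, and of the 9 tested CC chemokines 0 by either (median of CXC chemokines 0.30, 0.52 without PMN-MDSC library 11, 0.57 without PMN-MDSC library 31 and 0.71 without M-MDSC library 28, and of CC chemokines 0.14, from -0.14 without PMN-MDSC library 15 to 0.37 without PMN-MDSC library 31, with 0.34 without M-MDSC library 28). The 2 were higher in PMN-MDSC, as were 3.21% of all genes by DESeq2.

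Among the genes through which MDSC restrain T cells, 20 were tested, of which 13 leaned to PMN-MDSC and 7 to M-MDSC, with 0 called by edgeR and 4 by DESeq2 (median 0.41, 0.53 without M-MDSC library 28). The 4 were higher in PMN-MDSC, where DESeq2 called 3.21% of all genes. Ptgs2, which encodes cyclooxygenase-2, was at 861, 995, 2151 and 1667 CPM in the PMN-MDSC libraries and 585, 249 and 561 CPM in the M-MDSC libraries (log2 fold change 1.61 ± 0.44, adjusted p = 0.229), without overlap. Cd274, which encodes PD-L1, was at 235, 272, 477 and 551 CPM in the PMN-MDSC libraries and 233, 201 and 278 CPM in the M-MDSC libraries, and Nos2, inducible nitric oxide synthase, ranged from 13.9 to 463 CPM among PMN-MDSC libraries alone. Ptgs2 thus separated the cell types by level, whereas Cd274 did not. Slc7a11, a cystine importer, was at 158, 128, 398 and 477 CPM in the PMN-MDSC libraries and 50.3, 20.6 and 128 CPM in the M-MDSC libraries (log2 fold change 2.13 ± 0.70, adjusted p = 0.296). Nt5e, the ectoenzyme CD73 that makes adenosine, was at 33.6, 27.5, 26.9 and 11.2 CPM in the PMN-MDSC libraries and 9.22, 5.15 and 4.66 CPM in the M-MDSC libraries (log2 fold change 1.996 ± 0.43, adjusted p = 0.141). Havcr2, the checkpoint receptor TIM-3, was the member whose M-MDSC libraries all stood above PMN-MDSC, at 56.1, 72.7, 45.1 and 57.98 CPM in the PMN-MDSC libraries and 108, 96.9 and 107 CPM in the M-MDSC libraries (log2 fold change -0.84 ± 0.19, adjusted p = 0.171, -0.89 without library 28).

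Glycolysis and hypoxia genes leaned to PMN-MDSC without passing the test. All 19 tested glycolysis genes had a higher fitted level in PMN-MDSC (median 0.53, 0.32 without PMN-MDSC library 31 and 0.40 without M-MDSC library 28), as had all 14 hypoxia response genes (median 0.95, 0.78 without M-MDSC library 28). In each list edgeR called 0, whereas DESeq2 called 2 and 5, and libraries stayed apart for 4 and 6, against 3.21% of all genes called by DESeq2 and 8.22% apart on the PMN-MDSC side. Other scalings left 17 to 19 glycolysis members and 13 to 14 hypoxia members on the PMN-MDSC side. Slc2a3, a glucose transporter of high affinity, was at 98.8, 153, 183 and 219.7 CPM in the PMN-MDSC libraries and 7.96, 3.80 and 26.9 CPM in the M-MDSC libraries (log2 fold change 3.69 ± 0.65, adjusted p = 0.0762, 3.21 without library 28). Pfkfb4, which tunes glycolytic flux, was at 87.1, 108, 109 and 153 CPM in the PMN-MDSC libraries and 46.9, 44.97 and 23.3 CPM in the M-MDSC libraries (log2 fold change 1.57 ± 0.30, adjusted p = 0.101). Egln3, an oxygen-sensing hydroxylase that hypoxia induces, was at 32.8, 46.5, 183 and 199 CPM in the PMN-MDSC libraries and 13.8, 10.96 and 8.61 CPM in the M-MDSC libraries (log2 fold change 3.36 ± 0.71, adjusted p = 0.141). The values of Egln3 split the PMN-MDSC libraries, with 27 and 31 several times above 11 and 15. Bnip3, a mitophagy receptor, was at 57.1, 58.8, 187 and 211 CPM in the PMN-MDSC libraries and 33.5, 50.3 and 32.99 CPM in the M-MDSC libraries (log2 fold change 1.71 ± 0.53, adjusted p = 0.268), and Vegfa, the vascular growth factor, at 426, 394, 756 and 572 CPM in the PMN-MDSC libraries and 239, 322 and 229.9 CPM in the M-MDSC libraries (log2 fold change 1.02 ± 0.29, adjusted p = 0.233).

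The reverse lean was seen in ribosomal protein, cell cycle and respiration genes. All 48 tested cytosolic ribosomal protein genes had a higher fitted level in M-MDSC under every scaling tried (median -0.41, -0.26 without M-MDSC library 16 and -0.49 without M-MDSC library 28), 14 of them with libraries apart, against 6.47% of all genes in that direction, and 0 were called by edgeR or DESeq2. Of 30 cell cycle genes 29 (median -0.50, -0.32 without PMN-MDSC library 27, -0.28 without PMN-MDSC library 31 and -0.62 without M-MDSC library 28), and of 35 oxidative phosphorylation genes 31 (median -0.27, -0.36 without M-MDSC library 28), were on the M-MDSC side, with 0 called by either tool. The libraries were apart for 4 of the 30 cell cycle and 5 of the 35 oxidative phosphorylation genes, beside the same 6.47%. Rpl4, of the large ribosomal subunit, was at 449, 461, 337 and 276 CPM in the PMN-MDSC libraries and 606, 562 and 542 CPM in the M-MDSC libraries (log2 fold change -0.58 ± 0.24, adjusted p = 0.371). Mcm4, part of the replicative helicase, was at 46.999, 44.2, 39.7 and 34.1 CPM in the PMN-MDSC libraries and 63.3, 52.8 and 67.1 CPM in the M-MDSC libraries (log2 fold change -0.56 ± 0.19, adjusted p = 0.297). The steps were small, with the groups next to each other and not overlapping.

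**Figure D3:**
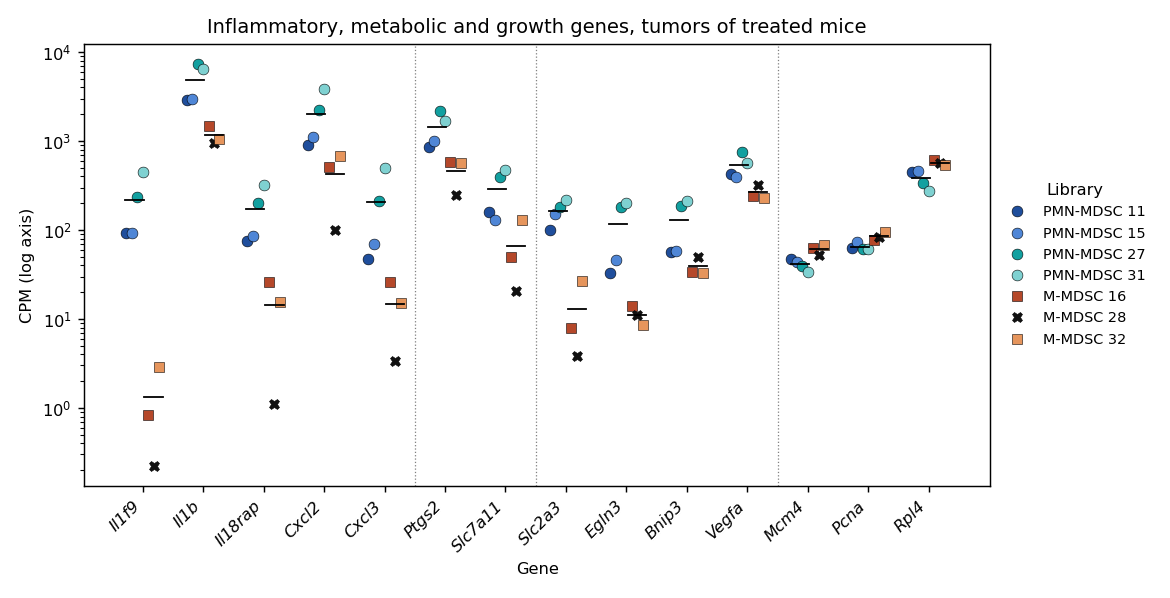
Levels of 14 inflammatory, suppressive, metabolic and growth genes in each library as CPM on a log axis; circles are PMN-MDSC, squares M-MDSC, the cross M-MDSC library 28, and short lines group means. In most of the inflammatory and hypoxia genes PMN-MDSC libraries 27 and 31 lie above 11 and 15.

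The TNF family and death receptor list had 15 tested members, 12 higher in PMN-MDSC, with 0 called by edgeR and 6 by DESeq2 (median 1.01, 0.41 without PMN-MDSC library 31 and 0.65 without M-MDSC library 28). Of all genes, DESeq2 called 3.21% higher in PMN-MDSC. Ltb, lymphotoxin beta, was at 22.4, 18.001, 42.6 and 31.5 CPM in the PMN-MDSC libraries and 3.35, 0.224 and 3.95 CPM in the M-MDSC libraries (log2 fold change 3.61 ± 0.68, adjusted p = 0.101). Tnfrsf23, a decoy receptor for TRAIL, was at 20.03, 28.9, 78.3 and 83.9 CPM in the PMN-MDSC libraries and 4.61, 3.80 and 8.61 CPM in the M-MDSC libraries (log2 fold change 3.22 ± 0.62, adjusted p = 0.109), and the death receptor Fas at 34.2, 19.02, 50.4 and 58.5 CPM in the PMN-MDSC libraries and 10.9, 4.70 and 14.7 CPM in the M-MDSC libraries (log2 fold change 2.02 ± 0.50, adjusted p = 0.204). The survival gene Bcl2l1 was at 128, 177, 255 and 435 CPM in the PMN-MDSC libraries and 83.4, 87.3 and 75.3 CPM in the M-MDSC libraries (log2 fold change 1.60 ± 0.40, adjusted p = 0.208). In each of these 4 genes the groups did not overlap, which held for 6 of the 15 TNF family members and 8.22% of all genes on the PMN-MDSC side.

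The list of interferon-stimulated genes, which poly(I:C) is known to induce, had 0 members that passed the test. Of 53 tested members 34 were higher in PMN-MDSC and 19 in M-MDSC, 0 were called by edgeR or DESeq2, and the median was 0.11. This median had no stable sign, since leaving out single libraries moved it from -0.10 without M-MDSC library 28 to 0.26 without M-MDSC library 32, and it was -0.00 to 0.14 over the scalings. Ifit1bl2, an Ifit family gene that the list does not hold and that was named after its values were seen, was among the 34 called genes. It was at 20.3, 15.96, 29.9 and 37.1 CPM in the PMN-MDSC libraries and 2.51, 0.895 and 1.08 CPM in the M-MDSC libraries (log2 fold change 4.15 ± 0.49, adjusted p = 0.0336, 3.83 without library 28), and reads could be shared with similar Ifit genes. The summed level of the list was 15082, 13693, 14063 and 25934 CPM in PMN-MDSC and 15861, 8034 and 16916 CPM in M-MDSC, so that library 31 was highest and library 28 lowest. Ifit3, an antiviral effector, was at 441, 407, 353 and 943 CPM in the PMN-MDSC libraries and 253, 163 and 431 CPM in the M-MDSC libraries (log2 fold change 0.93 ± 0.45, adjusted p = 0.412). Oasl2, of the family that senses double-stranded RNA, was at 730.4, 621, 909.8 and 1205 CPM in the PMN-MDSC libraries and 503, 272 and 598 CPM in the M-MDSC libraries (log2 fold change 0.92 ± 0.35, adjusted p = 0.34), and the groups stayed apart. Ifi205, of the interferon-inducible DNA sensor family, was at 87.3, 69.3, 33.8 and 112 CPM in the PMN-MDSC libraries and 242, 53.02 and 430.4 CPM in the M-MDSC libraries (log2 fold change -1.67 ± 0.63, adjusted p = 0.343).

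The PMN-MDSC libraries were not alike. In 27 of the 34 called genes libraries 27 and 31 were both above 11 and 15, and over all tested genes this held for 2644 (29.5%). The pair was above in 17 of 19 glycolysis, 13 of 14 hypoxia and 12 of 15 TNF family genes. It was below in all 30 cell cycle genes, 20 of 22 monocyte and macrophage genes, 43 of 48 ribosomal protein genes and all 7 MHC class II genes, and below in 2919 (32.6%) of all genes. Libraries with more macrophage and growth transcripts were thus the ones with lower levels of the called genes, and the part of this split in the differences was not tested. In M-MDSC, library 28 was below the other libraries in 46 of 53 interferon-stimulated genes and above them in all 7 MHC class II genes, against 3373 (37.7%) and 3498 (39.1%) of all genes.

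By DESeq2 10 genes (0.116%) were called higher in M-MDSC at an adjusted p under 0.05 with at least 2-fold, and 49 without library 28, beside 276 and 239 higher in PMN-MDSC. The 10 included the HDL receptor gene Scarb1, at 45.9, 37.4, 24.5 and 28.5 CPM in the PMN-MDSC libraries and 118, 51.7 and 86.8 CPM in the M-MDSC libraries (edgeR log2 fold change -1.31 ± 0.32, adjusted p = 0.194). The mitochondrial transcript mt-Nd4l, a subunit of complex I chosen after its values were seen, was at 1.87, 2.72, 10.3 and 1.53 CPM in the PMN-MDSC libraries and 50.3, 72.04 and 13.99 CPM in the M-MDSC libraries (edgeR log2 fold change -3.53 ± 0.73, adjusted p = 0.135). Its overlap with a neighbouring mitochondrial gene makes the count uncertain. Mitochondrial genes held 6.46, 7.56, 6.38 and 5.96% of counts in the PMN-MDSC libraries and 8.11, 11.3 and 7.56% in the M-MDSC libraries. The part of this share in the difference was not tested. No gene on the M-MDSC side passed edgeR's test in the main fit. At the same threshold edgeR called 60 genes there with no filter on low counts, 4 in a fit over the 4 tumor MDSC groups and 2 in a fit over the 4 groups of treated mice.

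The same pair of cell types in spleens of the same treatment group were farther apart than in tumor. In spleen, 1760 of 8153 genes (21.6%) were at least 2-fold higher in PMN-MDSC and 2396 (29.4%) in M-MDSC, against 549 of 8955 (6.13%) and 90 (1.01%) in tumor. The distance between a PMN-MDSC and an M-MDSC library, as the root mean square of log2 differences, was 1.62 to 2.07 in spleen and 0.641 to 1.35 in tumor. Within tumor PMN-MDSC it was 0.368 to 0.875 and within tumor M-MDSC 0.628 to 0.939, so that distances between and within the cell types overlapped. All 34 called genes were also called higher in spleen PMN-MDSC at an adjusted p under 0.05 with at least 2-fold, where 20.6% of all genes were called in that direction. Their median log2 fold change in spleen, over the 30 with counts, was 4.87.

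The difference between compartments was tested as an interaction in a fit over the MDSC libraries of treated mice. The fit took all libraries as independent, although the sample titles share numbers between tumor and spleen, so that a mouse may enter more than once. Of 8725 genes, 2685 (30.8%) passed at an adjusted p under 0.05, 1711 (19.6%) with a larger PMN-MDSC minus M-MDSC difference in tumor and 974 (11.2%) with a smaller one. The split moved with the scaling, with 1581 larger and 1191 smaller under RLE scaling, 1792 and 1466 with DESeq2, 2191 and 564 under upper-quartile scaling and 2777 and 333 under library totals. Monocyte and macrophage genes accounted for 12 of the larger ones out of 22 tested, with 0 smaller, and 25 of 48 ribosomal protein genes were larger with 0 smaller. Of 31 cell cycle genes 7 were larger, a share near the 19.6% of all genes. A larger difference in this sense includes one that was less negative in tumor than in spleen. Klf4 had a log2 fold change of -6.72 in spleen against -0.53 ± 0.22 in tumor, an interaction of 6.16 ± 0.69 (adjusted p = 1.63e-04). Havcr2 moved in the same way, with an interaction of 2.02 ± 0.30 (adjusted p = 6.20e-04).

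Neutrophil genes kept their direction across compartments. All 21 were higher in PMN-MDSC of spleen, with a median log2 fold change of 4.34, and 19 of 21 had a smaller difference in tumor, of which 3 passed the interaction test. Of all genes, 11.2% passed with a smaller difference in tumor, and changes of at least 2-fold were in general less frequent there than in spleen. For Mmp9 the spleen log2 fold change was 8.48 and the interaction -3.66 ± 1.04 (adjusted p = 0.0176). In total 8 of the 34 called genes had a smaller difference in tumor than in spleen by the interaction test and 0 a larger one, beside 11.2% and 19.6% of all genes. For the monocyte and macrophage list the spleen median was -2.59, and 18 of its 20 members tested there were called higher in M-MDSC, where 26.8% of all genes were called in that direction, against 0 of 22 in tumor, where 0 of all genes were.

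**Figure D4:**
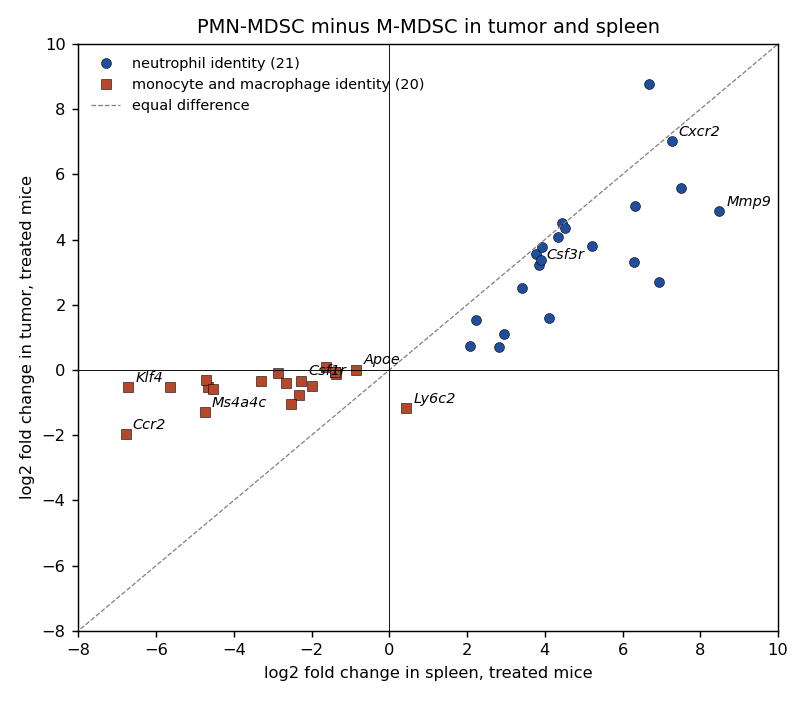
Log2 fold change (PMN-MDSC minus M-MDSC) in tumors against that in spleens of treated mice for 21 neutrophil and 20 monocyte and macrophage genes. The neutrophil genes lie on the positive side in both compartments, and 19 of the 20 monocyte and macrophage genes lie below 0 in spleen, with a smaller difference in tumor for 19 of the 20. Over all genes, changes of at least 2-fold were also more frequent in spleen than in tumor.

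The genes with the smallest interaction p-values show the pattern in single libraries, here as CPM scaled over all MDSC libraries. Hspa9, a mitochondrial chaperone, was at 181, 192, 154 and 122 CPM in tumor PMN-MDSC and at 167, 166 and 164 CPM in tumor M-MDSC. In spleen it was at 16.9, 13.96 and 9.97 CPM in PMN-MDSC and at 112, 130.01, 119.8 and 141 CPM in M-MDSC. The gap seen in spleen was not seen in tumor, with an interaction of 3.22 ± 0.29 (adjusted p = 9.97e-05). Pdxk, pyridoxal kinase, was at 61.8, 48.5, 39.8 and 30.6 CPM in tumor PMN-MDSC and 71.4, 54.3 and 66.7 CPM in tumor M-MDSC, against 0.558 to 1.69 and 45.2 to 61.4 CPM in spleen (interaction 4.96 ± 0.46, adjusted p = 9.97e-05). In the other direction, Acvrl1, a TGF-β family receptor, was at 50.4, 91.5, 35.7 and 56.5 CPM in tumor PMN-MDSC and 38.2, 84.4 and 28.2 CPM in tumor M-MDSC. Its spleen levels were 245 to 519.9 CPM in PMN-MDSC and 8.15 to 13.6 CPM in M-MDSC, and the interaction was -4.81 ± 0.58 (adjusted p = 0.000252).

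Untreated tumors were the other point of reference, and there the cell types were also close. In them 465 of 7623 genes (6.1%) were at least 2-fold higher in PMN-MDSC against 151 (1.98%) in M-MDSC, and the test called 359 (4.71%) and 129 (1.69%) at an adjusted p under 0.05 with at least 2-fold. Of the 34 called genes 23 were tested there and 22 were called, in the same direction, with a median log2 fold change of 3.61 over 22 genes. The median of the hypoxia list was -0.22 and that of the glycolysis list -0.27 in untreated tumors, below the treated medians of 0.95 and 0.53. The cell cycle median was 0.86 in untreated tumors over 17 members and -0.50 in treated ones. In none of these lists did a member pass the test of the difference between treated and untreated tumors.

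**Figure D5:**
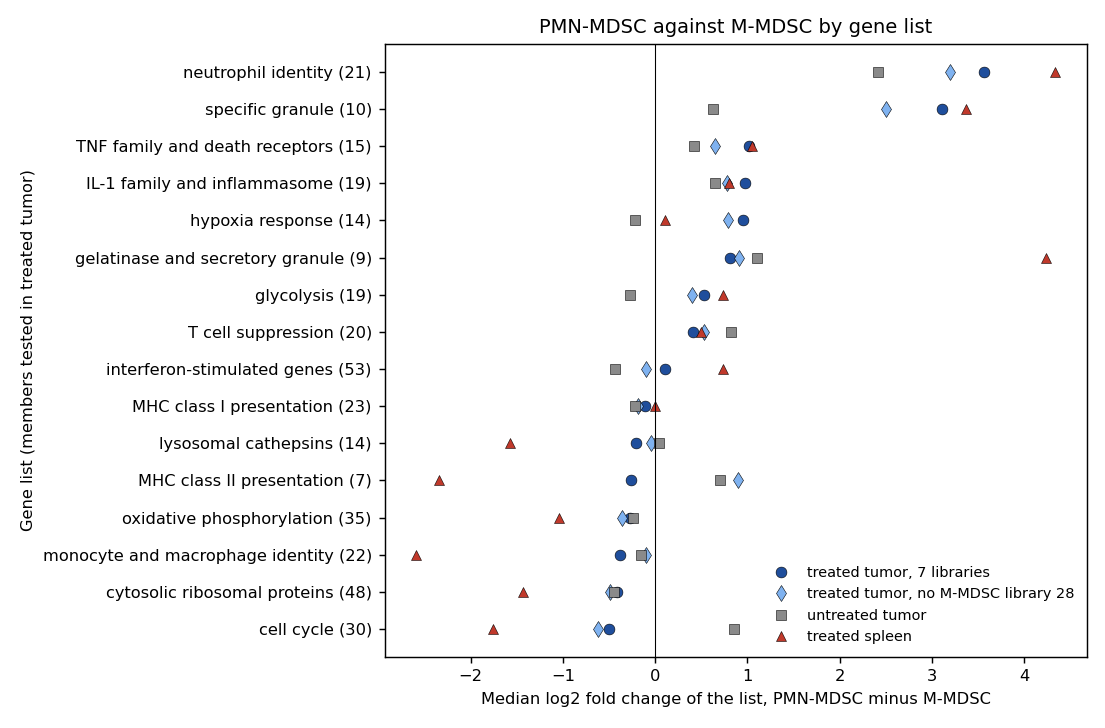
Median log2 fold change (PMN-MDSC minus M-MDSC) of 16 gene lists in treated tumors with all 7 libraries and without M-MDSC library 28, in untreated tumors and in spleens of treated mice. The neutrophil list is positive in all 4. The monocyte and macrophage list is at -0.38 in treated tumors, -0.10 without library 28, -0.16 in untreated tumors and -2.59 in spleen.

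The interaction of cell type with treatment, fitted over the 15 MDSC libraries of tumors, passed an adjusted p under 0.05 in 2 of 8385 genes (0.0239%), and 720 genes (8.59%) had an unadjusted p under 0.05. Ccnd2, which encodes cyclin D2, was at 165, 187, 150.5 and 171 CPM in PMN-MDSC and 177, 157 and 261 CPM in M-MDSC of treated tumors. In untreated tumors it was at 186, 189, 131 and 143 CPM in PMN-MDSC and 47.5, 67.2, 58.2 and 51.5 CPM in M-MDSC. Only the untreated M-MDSC libraries were low, and the PMN-MDSC minus M-MDSC difference was smaller in treated tumors by -1.75 ± 0.28 on the log2 scale (adjusted p = 0.0467). P2ry14, a receptor for UDP-glucose, had the same pattern, at 46.1, 44.6, 33.4 and 42.1 CPM in treated PMN-MDSC and 35.1, 64.7 and 85.6 CPM in treated M-MDSC. Its untreated levels were 29.3, 39.4, 39.6 and 36.8 CPM in PMN-MDSC and 8.29, 13.8, 10.3 and 5.15 CPM in M-MDSC (interaction -2.45 ± 0.39, adjusted p = 0.0467). The count of 2 was not firm, since leaving out single libraries gave 24 without M-MDSC library 16, 1 without library 28 and 0 for every other library. None of the 31 called genes that could be tested passed this interaction.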

How the data were processed

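RNA of sorted CD11b+ MDSC was made into libraries with a strand-specific total RNA kit (13 PCR cycles, no molecular identifiers). The authors aligned reads to mm10 using ContextMap 2.7.9 on top of BWA, obtained strand-specific gene counts from featureCounts (Subread 1.4.6-p3) with Gencode v16, and deposited these raw counts. From these counts edgeR 4.0.16 (R 4.3.3) gave TMM-scaled CPM, quasi-likelihood tests and Benjamini-Hochberg adjusted p-values over all tested genes. The fit was also run on counts simulated from the means, library sizes and dispersions of these data, and the share of changes it recovers is not given here. Genes needed a mean of 25 counts, and libraries 1000 counts. Calls were read at an adjusted p under 0.001 with 2-fold, as in the methods of the study, and at 0.05 with 2-fold. Alternatives used DESeq2 1.42.0, limma 3.58.1 (voom), other scalings, filters and sets of libraries. Groups came from column names, which give no mouse, so no samples were paired, and p-values measure the spread between libraries. Depth was 2192320 to 4357105 counts, and 3 counts were taken as the floor. Promoters came from RefSeq. Some genes and alleles are not reported here. The 8955 genes tested, the comparison and all gene lists were chosen with earlier results of these data known, and named were called genes and, per list, the members with the smallest adjusted p in each direction. Called genes outside the lists, and members outside that rule such as Apoe, Mrc1, Csf1r, Cd274 and Nos2, were chosen after their values were seen. Symbols of 53274 of 53379 identifiers matched GENCODE M21.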

Additional observations from a re-analysis of the deposited data

Results flagged for a closer look

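Within the 4 PMN-MDSC libraries, 106 values were checked for a library far from the others, by the gap of the highest or lowest library to its neighbour as a share of the range of the group, and chance passes about 1 in 20 groups. The 6 that passed had shares of 0.883 for Mmp8, 0.85 for Ifit3, 0.864 for mt-Nd4l, 0.857 for Naip5, 0.887 for the summed interferon-stimulated genes and 0.881 for the summed interferon receptors and signalling genes. Mmp8 was at 128, 361, 210.1 and 2119 CPM and Ifit3 at 441, 407, 353 and 943 CPM in libraries 11, 15, 27 and 31, and library 31 was the one apart in both and in both sums. For mt-Nd4l (1.87, 2.72, 10.3 and 1.53 CPM) and Naip5 (59.8, 56.7, 38.2 and 57.98 CPM) it was library 27.

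The PMN-MDSC minus M-MDSC difference of Ccnd2 (-1.75 on the log2 scale) and P2ry14 (-2.45) was smaller in treated than in untreated tumors by the interaction test. Between tumor and spleen of treated mice, the difference was larger in tumor for the stress granule gene G3bp1 (2.61), the chaperone Hspa9 (3.22), the kinase Pdxk (4.96) and the ribosome assembly genes Nop14 (3.08) and Wdr43 (2.95), each with an adjusted p of 9.97e-05. It was smaller in tumor for Asb7 (-2.89), the TGF-β family receptor Acvrl1 (-4.81), Aatk (-2.47), Zfp516 (-2.23) and the metalloproteinase inhibitor Timp2 (-3.76). These 10 genes are the 5 with the smallest adjusted p in each direction out of 2685 that passed.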

How the results depend on the processing

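The count of 0 at an adjusted p under 0.001 with 2-fold became 93 with DESeq2, 266 with no filter on low counts, 21 in a fit over the 4 tumor MDSC groups, 1 with voom and sample weights and 82 with DESeq2 and no library 28, and it was 34 at an adjusted p under 0.05 with or without the fold minimum. It stayed 0 under the other alternatives, among them leaving out each library (0 to 0). The count of 34 at an adjusted p under 0.05 became 286 with DESeq2, 22 with RLE scaling, 548 with no filter, 6 with at least 10 counts in every library, 218 in the fit over the 4 tumor groups, 96 in a fit over the 4 groups of treated mice, 6 with voom and 288 with DESeq2 and no library 28, and 0 to 38 when single libraries were left out. The interaction count of 2 with treatment became 22 with DESeq2 and 161 with no filter. It became 0 with upper-quartile scaling, with library totals, without robust estimates and at an adjusted p under 0.001, and it was 0 to 24 when single libraries were left out. The interaction count of 2685 with compartment became 1448 with at least 10 counts in every library, 261 at an adjusted p under 0.001 with 2-fold and 2017 to 3118 when single libraries were left out. The cause of these shifts was not tested. Voom with weights moved the medians of lists, to 0.28 for IL-1 and inflammasome, 0.38 for TNF family, 0.32 for glycolysis, -0.26 for cell cycle, -0.27 for ribosomal protein, 0.02 for monocyte and macrophage, -0.20 for azurophil granule and 1.32 for MHC class II genes. Voom with weights, DESeq2 without library 28 and the alternatives to the count of 34 were chosen after seeing the data.

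For 17 called genes named here 109 of 296 alternative values fell short of the threshold and 0 changed direction. For 49 genes not called, 109 of 870 alternative values passed it, and 1 changed direction, which was Ccr2 at 0.18 without M-MDSC library 16 (-2.46 to 0.18 when single libraries were left out). No paired analysis was possible because the count columns carry no mouse number, unlike the sample titles, which share numbers between cell types, and mice were not assigned from column order.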

Other observations

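The median log2 fold change over all genes was -0.07, beside which stand further gene lists. Toll-like receptors, which sense microbial products, had a median of 0.01 (from -0.12 without PMN-MDSC library 11 to 0.06 without PMN-MDSC library 27, with 0.01 without M-MDSC library 28) over 13 tested members, and 0 were called by edgeR. Tlr4, the receptor for lipopolysaccharide, was at 139.9, 159, 275 and 212 CPM in the PMN-MDSC libraries and 85.9, 105 and 83.2 CPM in the M-MDSC libraries (log2 fold change 1.10 ± 0.27, adjusted p = 0.194), and the groups did not overlap. Leukotriene and prostaglandin genes had a median of -0.14 (0.08 without PMN-MDSC library 31, 0.10 without M-MDSC library 28 and -0.00 without M-MDSC library 32) over 14, with 0 called by edgeR. Alox5, the first enzyme of leukotriene synthesis, was at 69.2, 114, 161 and 189 CPM in the PMN-MDSC libraries and 15.1, 5.15 and 48.4 CPM in the M-MDSC libraries (log2 fold change 2.55 ± 0.70, adjusted p = 0.233), also without overlap. Complement genes had a median of 0.11 (from -0.23 without M-MDSC library 16 to 0.62 without M-MDSC library 28) over 13, with 0 called by edgeR. The 14 tested genes of cathepsins and other lysosomal proteins had a median of -0.21 (-0.13 without PMN-MDSC library 27, -0.12 without PMN-MDSC library 31 and -0.04 without M-MDSC library 28), 12 of them higher in M-MDSC and 0 called.

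The 23 myeloid transcription factors were split, with 12 higher in PMN-MDSC and 11 in M-MDSC, 0 called and a median of 0.13 (from -0.01 without M-MDSC library 32 to 0.32 without M-MDSC library 16, with 0.13 without M-MDSC library 28). In spleen of treated mice 7 of the list were called higher in PMN-MDSC and 9 in M-MDSC at an adjusted p under 0.05 with at least 2-fold, out of 24 tested, beside 20.6% and 26.8% of all genes there. The 17 tested genes of the NADPH oxidase and redox defence, which serve the oxidative burst, had a median of 0.17 (from -0.05 without PMN-MDSC library 31 to 0.48 without M-MDSC library 32, with 0.00 without M-MDSC library 28) and 0 calls by edgeR. The 15 itaconate, iron and NAD genes had a median of 0.53 (0.32 without PMN-MDSC library 31 and 0.41 without M-MDSC library 28), 12 of them higher in PMN-MDSC and 0 called by edgeR. Integrins and adhesion genes had a median of -0.22 (-0.07 without PMN-MDSC library 31, -0.04 without M-MDSC library 16 and 0.11 without M-MDSC library 28) over 19, the Bcl-2 family and survival genes 0.19 (0.11 without PMN-MDSC library 15, 0.12 without PMN-MDSC library 31 and 0.05 without M-MDSC library 28) over 18, scavenger receptors 0.00 (from -0.31 without M-MDSC library 16 to 0.14 without M-MDSC library 28) over 13 and Fc gamma receptors -0.13 (from -0.30 without M-MDSC library 32 to 0.26 without M-MDSC library 28) over 5, each with 0 called by edgeR. Of 11 growth factor receptors Csf3r was called (median 0.07, from -0.04 without M-MDSC library 32 to 0.37 without M-MDSC library 28), and of 16 lipid-associated macrophage genes Cd9 (median 0.07, from -0.01 without M-MDSC library 16 to 0.26 without M-MDSC library 28). Of all genes 0.38% were called in that direction. Interferon receptors and signalling genes, 21 tested and 0 called by edgeR or DESeq2, had a median of -0.00 (from -0.11 without PMN-MDSC library 31 to 0.08 without M-MDSC library 16, with -0.08 without M-MDSC library 28). The medians of scavenger receptors, of growth factor receptors, of lipid-associated macrophage genes and of interferon receptors and signalling genes changed sign with the scaling.

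The eosinophil marker Siglecf was at 32.3, 34.98, 173 and 79.3 CPM in the PMN-MDSC libraries and 5.45, 2.68 and 58.5 CPM in the M-MDSC libraries, so that levels in M-MDSC library 32 and PMN-MDSC library 27 were above those of their groups. Its sum with the other eosinophil and mast cell markers is given above.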
